A study of Mus musculus with 9 samples.

Results

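The 39 mouse Hox genes of the A, B, C and D clusters were followed through the first 48 h of spermatogonial stem cell (SSC) differentiation in vitro. They were all genes with a symbol of the form Hox, a cluster letter and a position number, and they were 39 of the 46078 genes in the count files. In build GRCm38 the A cluster held 11 of them at chr6:52155590-52260880 (minus strand) and the B cluster 10 at chr11:96194316-96368256 (plus strand). The C cluster held 9 at chr15:102921103-103036852 and the D cluster 9 at chr2:74668310-74765142, both on the plus strand. Poly-A RNA was sequenced from EGFP-SSC, a wild-type mouse SSC line that carries green fluorescent protein, in 9 libraries, of which 3 were taken per time (0 h, 24 h or 48 h). The 0 h cells were in normal culture on mitomycin C-treated mouse embryonic fibroblasts, in medium with GDNF, EGF, bFGF and a little serum. The 24 h and 48 h cells were mixed with equal numbers of somatic cells from busulfan-exposed testes of the first postnatal week, in medium with retinoic acid, BMP-4/7, activin A, testosterone, FSH and bovine pituitary extract, and were recovered by flow cytometry for EGFP. The labels describe no such sort at 0 h, whereas the study speaks of sorting at more than 1 stage. Time, medium and contact with somatic cells changed together between 0 h and the later groups, so their effects, and that of any difference in sorting, cannot be told apart. All groups came from 1 cell line, and the p-values below measure the spread between its replicates, which the labels call biological without saying how they were kept apart.

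Hox genes encode homeodomain transcription factors that give cells their place along the body axis. Within each cluster the genes stand in a fixed order, numbered from 1 at the 3′ end to 13 at the 5′ end, and genes with the same number in different clusters, called paralogs, descend from a common gene. In the embryo the 3′ genes are switched on earlier and closer to the head than the 5′ genes, retinoic acid activates the 3′ genes in particular, Polycomb proteins keep silent clusters closed, and trithorax-type proteins keep active genes open. Hox proteins bind DNA together with cofactors of the TALE class (Pbx, Meis and Pknox).

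The homeobox is the stretch of 180 coding bases that encodes the DNA-binding domain, and it was found in the coding sequence of all 39 members in GENCODE M21. Over the 741 pairs of members a median of 61.1% of its bases were identical, and over the 42 pairs at the same position a median of 80.6%, with a range from 67.2% to 93.9%. The homeoboxes of position 8 are shown because it was the position at which all members passed the filter and rose at both times. In both comparisons with 0 h, Hoxb8 and Hoxc8 passed the filter only through the later group, where they were higher. They lie on the plus strand at chr11:96284174-96284353 (Hoxb8), chr15:102992571-102992750 (Hoxc8) and chr2:74706525-74706704 (Hoxd8). Capitals mark the 56 bases at which the 3 sequences are not all alike.
Hoxb8: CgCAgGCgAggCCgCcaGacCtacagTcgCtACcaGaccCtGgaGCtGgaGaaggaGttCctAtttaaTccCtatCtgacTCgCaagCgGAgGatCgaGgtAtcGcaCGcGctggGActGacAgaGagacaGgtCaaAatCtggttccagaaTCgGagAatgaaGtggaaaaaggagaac
Hoxc8: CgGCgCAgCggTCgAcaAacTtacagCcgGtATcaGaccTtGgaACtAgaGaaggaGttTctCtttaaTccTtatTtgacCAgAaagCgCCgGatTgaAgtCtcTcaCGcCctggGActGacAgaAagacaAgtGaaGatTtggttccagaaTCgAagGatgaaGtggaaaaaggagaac
Hoxd8: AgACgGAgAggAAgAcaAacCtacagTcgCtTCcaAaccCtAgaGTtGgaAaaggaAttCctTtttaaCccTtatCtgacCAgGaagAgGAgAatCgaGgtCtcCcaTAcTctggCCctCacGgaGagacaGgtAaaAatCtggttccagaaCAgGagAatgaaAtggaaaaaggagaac
Hoxb8 shared 80% of these bases with Hoxc8 and 80.6% with Hoxd8, and Hoxc8 shared 73.3% with Hoxd8. The homeoboxes of Hoxb13 (chr11:96196020-96196199) and Hoxc13 (chr15:102927210-102927389), both on the plus strand, are shown because these members had the highest levels and moved in opposite directions. Capitals mark the 47 bases that differ between them.
Hoxb13: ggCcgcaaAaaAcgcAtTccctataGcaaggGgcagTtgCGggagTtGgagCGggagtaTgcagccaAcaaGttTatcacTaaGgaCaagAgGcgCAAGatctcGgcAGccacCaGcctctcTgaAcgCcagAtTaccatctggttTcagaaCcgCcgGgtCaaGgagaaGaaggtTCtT
Hoxc13: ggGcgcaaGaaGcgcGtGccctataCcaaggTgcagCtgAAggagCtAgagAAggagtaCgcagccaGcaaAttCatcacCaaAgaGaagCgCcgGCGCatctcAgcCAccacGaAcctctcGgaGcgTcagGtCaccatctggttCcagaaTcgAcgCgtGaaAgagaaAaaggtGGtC
These were identical at 73.9% of bases, and the longest run without a difference was 11 bases. Counting can split reads between near-identical genes. No window of 75 bases of the longest transcript was found in another gene for 24 of the 39 members. Of the others, 10 shared over 10% of their windows, with shares of 85.3% for Hoxd3, 67.6% for Hoxb3, 40.6% for Hoxd4, 32.9% for Hoxa11, 26.2% for Hoxa7 and 24.6% for Hoxa3. The library protocol names no step that marks strand, so reads of these members and of overlapping transcripts cannot be told apart, and their values are uncertain.

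A stretch of 250 bases before the gene start is shown for the 3 members that rose at both times, had a RefSeq promoter entry (GRCm38.p6) and had no annotated exon in it. It lies on the plus strand at chr11:96318017-96318266 (Hoxb4), chr11:96281655-96281904 (Hoxb8) and chr2:74704365-74704614 (Hoxd8). Capitals mark matches on either strand to TATAAA (the TATA box), CCAAT (bound by NF-Y), GGGCGG (the GC box of Sp1 factors), TGATTNAT (a joint Pbx and Hox site), TTTATG (a Cdx site), TAATTA (a homeodomain core) or retinoic acid response elements (direct repeats spaced by 5 or by 2).
Hoxb4: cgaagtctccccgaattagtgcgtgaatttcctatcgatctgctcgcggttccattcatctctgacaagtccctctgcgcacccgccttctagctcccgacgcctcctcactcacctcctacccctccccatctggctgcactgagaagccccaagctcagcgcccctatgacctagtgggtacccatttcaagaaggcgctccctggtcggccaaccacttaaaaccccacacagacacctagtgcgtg
Hoxb8: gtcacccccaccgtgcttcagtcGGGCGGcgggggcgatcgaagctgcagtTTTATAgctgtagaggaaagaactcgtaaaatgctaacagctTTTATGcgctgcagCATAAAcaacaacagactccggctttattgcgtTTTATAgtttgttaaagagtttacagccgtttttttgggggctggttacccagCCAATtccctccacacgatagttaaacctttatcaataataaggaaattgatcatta
Hoxd8: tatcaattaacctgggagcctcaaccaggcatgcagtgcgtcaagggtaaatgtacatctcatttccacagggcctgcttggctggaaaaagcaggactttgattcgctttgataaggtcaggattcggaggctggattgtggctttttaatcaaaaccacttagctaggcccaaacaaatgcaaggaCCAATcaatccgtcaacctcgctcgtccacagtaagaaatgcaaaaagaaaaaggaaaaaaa
The Hoxb4 stretch held none of these letters. The Hoxb8 stretch held 2 matches to TATAAA, 2 to TTTATG and 1 each to CCAAT and GGGCGG, and the Hoxd8 stretch held CCAAT 62 bases before the start. Of all 32851 promoter entries, 12.4% held TATAAA, 10.8% TTTATG, 33.8% CCAAT, 32.7% GGGCGG, 2.82% TGATTNAT and 4.84% TAATTA. Among the 22 members with an entry, CCAAT was present in 14, GGGCGG in 10, TTTATG in 5, TATAAA in 4, TGATTNAT in 2 and TAATTA in 1. No member held the retinoic acid elements, which 0.0883% (spacing 5) and 0.174% (spacing 2) of all entries held.

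Library totals ran from 16825251 to 22201892 counts. The germ cell gene Ddx4 was high in all groups, with a level of 357 ± 129 CPM (counts scaled to library size, mean ± SD, n = 3) in the 0 h group, 359 ± 27.8 in the 24 h group and 382 ± 14.3 in the 48 h group. The 0 h libraries differed more from each other than the later ones did, and replicate 3 had the lowest Ddx4 count, 4279 against 7401 and 8017. Many but not all markers of testicular somatic cells were much higher after co-culture in spite of the EGFP gate. At 24 h, 3 of 9 tested Sertoli markers and 1 of 11 stromal markers were lower (tests below). Acta2, the smooth muscle actin of peritubular myoid cells, stood at 1.98 ± 0.559 CPM before co-culture, then at 97.9 ± 16.2 (24 h) and 168 ± 21.9 (48 h). Tcf21, a stromal transcription factor, and Hsd3b1, a Leydig cell enzyme, had no count at 0 h and 30 to 116 counts per library later. In such bulk samples a change in the number of cells of a type and a change in RNA per cell cannot be told apart.

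Hox transcripts were scarce in the 0 h libraries. These cells grew on embryonic fibroblasts, the labels describe no sort at 0 h, and the 11 stromal markers summed to 767 to 912 CPM there. The part of feeder cell RNA in the 0 h Hox values was not tested. A member was taken as above the floor when any library of a group held over 3 counts, and 20 of the 39 members were above it at 0 h, 34 at 24 h and 33 at 48 h. No library held a count of Hoxa11, Hoxb1, Hoxd3, Hoxd4 or Hoxd11 at 0 h, or of Hoxd12 at 24 h and 48 h. The highest count of any member in any library was 183, and counting error is therefore large for most members. Levels of different genes were compared as CPM per kb of exon. On that scale the 39 members summed to 11.6 ± 1.63 at 0 h, 14.3 ± 1.07 at 24 h and 20.3 ± 0.226 at 48 h. The sums of the libraries were 10.2, 11.2 and 13.4 at 0 h, 13.1, 14.7 and 15.1 at 24 h, and 20.4, 20.3 and 20.0 at 48 h, so that the 48 h libraries stood above all others and the 0 h and 24 h libraries overlapped.

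At 0 h a single gene, Hoxc13, made up 31.1% of the summed level. Hoxc13, best known for its role in hair and nail formation, stood at 3.60 ± 0.14 CPM per kb and above every other member in all 3 libraries. Next in order came Hoxb13 (1.38 ± 0.472), Hoxc9 (1.33 ± 0.0603) and Hoxb7 (1.14 ± 0.231), whose libraries overlapped each other. These 4 genes carried 64.2% of the sum, and the next member, Hoxd8, reached 0.524 ± 0.113. At 24 h the order was Hoxb13 (1.77 ± 0.251), Hoxd8 (1.45 ± 0.141), Hoxb4 (1.27 ± 0.0888) and Hoxb7 (1.15 ± 0.215), each overlapping its neighbour. At 48 h Hoxb13 (3.00 ± 0.621) stood above all other members, and Hoxb9 (1.75 ± 0.19), Hoxd8 (1.57 ± 0.125) and Hoxb7 (1.55 ± 0.393) overlapped behind it. Hoxc13 had fallen to 0.639 ± 0.068 and 0.703 ± 0.106 CPM per kb at 24 h and 48 h.

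The 4 clusters did not move alike. The A cluster summed to 0.794 ± 0.157 CPM per kb at 0 h, 1.47 ± 0.306 at 24 h and 2.49 ± 0.554 at 48 h. The B cluster summed to 3.81 ± 0.849, 6.32 ± 0.482 and 9.24 ± 0.293 in the same order, and the D cluster to 1.02 ± 0.534, 2.65 ± 0.36 and 3.19 ± 0.56. In these clusters no library at 24 h or 48 h was as low as any at 0 h. The C cluster instead summed to 5.97 ± 0.518 at 0 h and then to 3.86 ± 0.0864 and 5.34 ± 0.764, and its share of all Hox signal went from 51.8% ± 4.18 to 27.1% ± 1.48 and 26.3% ± 3.51. In sums made without Hoxc13, chosen after the values were seen, the other 8 C genes reached to 2.37 ± 0.381, 3.22 ± 0.144 and 4.63 ± 0.661, with no overlap between the libraries of the 3 times. The B cluster held 32.6% ± 2.75, 44.2% ± 0.393 and 45.6% ± 0.961 of the signal. These shares are of sums with Hoxc13, whose fall raises the shares of the other clusters. Without Hoxc13 the other 38 members summed to 7.99 ± 1.54, 13.7 ± 1.11 and 19.55 ± 0.126 CPM per kb, beside B sums of 3.81, 6.32 and 9.24.

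By paralog position, positions 4 to 8 gained most. Their 15 members summed to 3.57 ± 0.582, 7.93 ± 0.46 and 9.97 ± 0.188 CPM per kb in order of time, with no overlap between times, and their share of Hox signal was 30.7% ± 0.688, 55.6% ± 2.02 and 49.2% ± 1.07. The 16 members at positions 9 to 13 summed to 7.38 ± 0.743, 5.50 ± 0.771 and 8.74 ± 0.318, with the 24 h libraries below all others. They include Hoxc13, at 3.60, 0.639 and 0.703, which fell by more at 24 h than the whole sum did. The fall of Hoxc13 also raises the share of positions 4 to 8. The 8 members at positions 1 to 3 summed to 0.651 ± 0.357, 0.866 ± 0.296 and 1.55 ± 0.253, with the 48 h libraries highest. These sums were given no test.

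**Figure D1:**
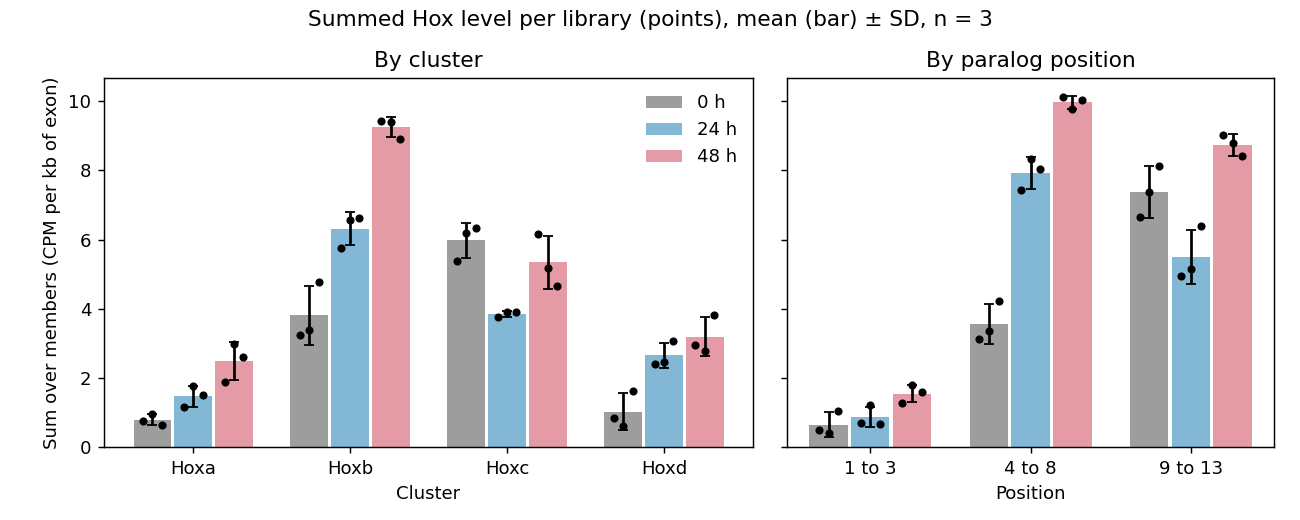
Summed level of Hox genes in CPM per kb of exon by cluster (left) and by position (right), with each library as a point and the mean ± SD of 3 libraries as a bar. The A, B and D clusters and positions 4 to 8 were higher in each 24 h and 48 h library than in any 0 h library, and the C cluster was lowest at 24 h.

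After 24 h, 6 Hox genes were higher and 2 were lower than at 0 h. Calls were made by edgeR's quasi-likelihood test at an adjusted p (Benjamini-Hochberg, over 17592 genes) up to 0.05. Over all genes tested, 11.4% were called higher and 14.2% lower. Only 14 of the 39 members passed the expression filter for this comparison, 6 through both groups, 7 through the 24 h group alone and 1 through the 0 h group alone. Passing through a single group favours members that are higher in that group. Of the members called higher, only Hoxd8 passed through both groups. Hoxb4, Hoxb8, Hoxc6, Hoxc8 and Hoxd9 passed through the 24 h group alone. With no filter, 8 of 39 members were called higher (5.75% of all genes) and 1 lower (7.64% of all genes). The same libraries had 5 of 6 markers of myoid cells, 7 of 11 of stromal cells, 6 of 9 of Sertoli cells and 3 of 4 of Leydig cells higher, while the other 3 Sertoli markers and 1 stromal marker were lower. The part of these cells in the Hox values was not tested.

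Hoxc13 fell most clearly. It had 136, 183 and 182 counts in the 0 h libraries, 35, 26 and 33 at 24 h, and 38, 40 and 29 at 48 h. The 0 h libraries were all far above the rest, and the later times overlapped. The log2 fold change was -2.48 ± 0.19 (SE) at 24 h (adjusted p = 0.000135) and -2.35 ± 0.19 at 48 h (adjusted p = 0.000154). Hoxc9, a gene of thoracic patterning, had 49, 67 and 66 counts at 0 h, 39, 37 and 36 at 24 h, and 51, 73 and 42 at 48 h. Its 24 h libraries were below all 0 h libraries on the CPM scale (log2 fold change -0.76 ± 0.21, adjusted p = 0.0376), while the 48 h libraries overlapped those of 0 h. The Hoxc9 call was lost under 4 of 8 other settings and in 5 of 6 fits with a library left out, with adjusted p from 0.0194 to 0.127.

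All 3 genes of position 8 rose at 24 h and at 48 h. Hoxc8, which patterns thoracic vertebrae and spinal cord, had 2, 9 and 3 counts at 0 h, 58, 45 and 47 at 24 h, and 76, 70 and 70 at 48 h. Its log2 fold changes from 0 h were 3.34 ± 0.46 (adjusted p = 0.00194) and 3.80 ± 0.44 (adjusted p = 0.000753). Hoxd8 had 27, 22 and 31 counts at 0 h, 74, 73 and 90 at 24 h, and 77, 108 and 83 at 48 h, with changes of 1.48 ± 0.26 (adjusted p = 0.00522) and 1.58 ± 0.25 (adjusted p = 0.00295). In both genes every later library was above every 0 h library. Hoxb8 had 10, 9 and 8 counts at 0 h, 37, 31 and 24 at 24 h, and 45, 51 and 29 at 48 h, and changed by 1.68 ± 0.36 (adjusted p = 0.0128) and 2.04 ± 0.35 (adjusted p = 0.00435). Its later libraries, too, were all above those of 0 h, but the 24 h call was lost in 3 of 6 fits with a library left out (0 h replicate 2, 24 h replicate 1 or 24 h replicate 2), with adjusted p up to 0.0649. None of the 3 was called between 24 h and 48 h, where their log2 fold changes were 0.11 to 0.47.

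The 3 other members that rose at both times were Hoxc6, Hoxd9 and Hoxb4. Hoxc6, expressed in the embryo at brachial and thoracic levels, had 1, 7 and 9 counts at 0 h, 37, 41 and 49 at 24 h, and 59, 52 and 54 at 48 h. It changed by 2.84 ± 0.50 (log2, adjusted p = 0.00575) and 3.16 ± 0.49 (adjusted p = 0.00282). Hoxd9, a limb and lumbar patterning gene, had 0, 1 and 3 counts at 0 h, 27, 17 and 30 at 24 h, and 38, 24 and 57 at 48 h. In both genes all 0 h libraries were below all later ones. Hoxd9 held 4 counts at 0 h in all and 74 at 24 h, a ratio of 17.5 in CPM with a 95% counting interval from 6.55 to 65.8, and its fitted changes were 4.03 ± 0.66 (adjusted p = 0.00393) and 4.68 ± 0.74 (adjusted p = 0.00295). Hoxb4, known from blood stem cells, had 5, 15 and 25 counts at 0 h, 64, 66 and 64 at 24 h, and 61, 57 and 47 at 48 h. The later libraries were all above those of 0 h, which differed among themselves by 5-fold in counts. Hoxb4 changed by 2.07 ± 0.43 at 24 h (adjusted p = 0.011) and 1.77 ± 0.44 at 48 h (adjusted p = 0.0206). The 48 h call of Hoxb4 was lost without 0 h replicate 2 or without any one of the 48 h libraries, with adjusted p up to 0.0823. It was also lost with replicate number as a block in the fit.

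**Figure D2:**
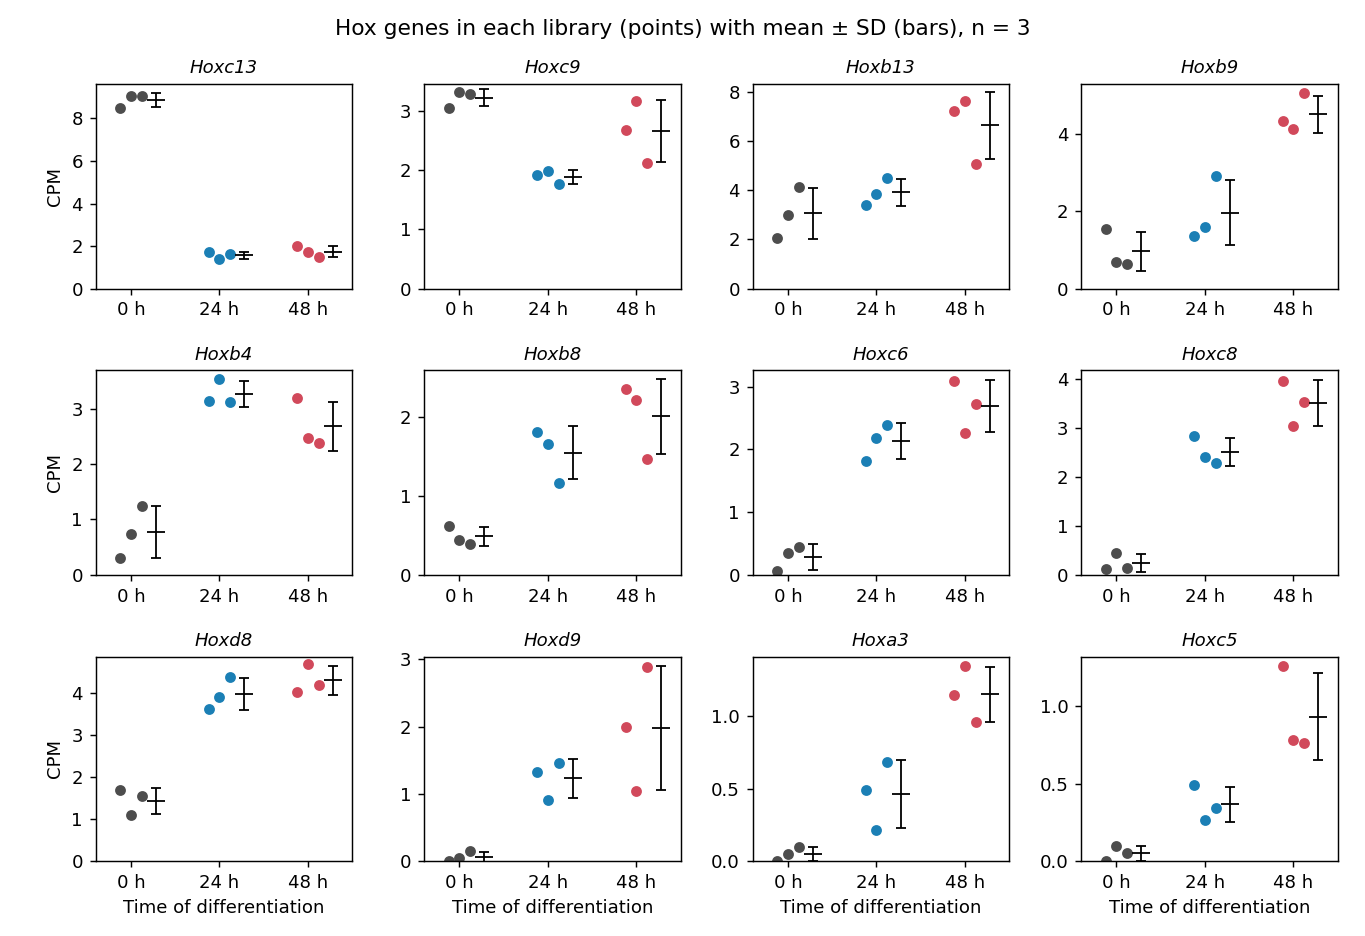
CPM of 12 Hox genes in each library at 0 h, 24 h and 48 h (points) with the mean ± SD (bars, n = 3), each panel on its own axis from 0. Hoxc13 was high at 0 h only, Hoxc6, Hoxc8, Hoxd8, Hoxd9, Hoxb4 and Hoxb8 were higher by 24 h, and Hoxb13 and Hoxb9 were highest at 48 h.

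After 48 h, 15 Hox genes were higher than at 0 h and 1, Hoxc13, was lower. Over the 17755 genes tested, 13% were called higher and 18.5% lower. Here 23 of 39 members passed the filter, 14 of them through the 48 h group alone, 7 through both groups and 2 through neither group by itself. With no filter, 16 of 39 members were called higher (6.74% of all genes) and 1 lower (9.76% of all genes). By cluster, 4 of 6 tested A genes, 5 of 7 B genes, 3 of 7 C genes and 3 of 3 D genes were higher. These ratios depend on the filter. With no filter 5 of 11 A genes, 5 of 10 B genes, 3 of 9 C genes and 3 of 9 D genes were higher. Without 0 h replicate 3, the library with the lowest Ddx4 count, 16 members were higher and 1 lower at 48 h, and 6 were higher and 1 lower at 24 h. The calls over all genes moved as well. At 48 h, 3063 of 18251 genes were then higher and 3400 lower, against 2310 and 3292 of 17755 with all libraries. At 24 h, 3070 of 18036 were higher and 2953 lower, against 2002 and 2492 of 17592. With all libraries, 5 of 6 myoid, 8 of 11 stromal, 6 of 9 Sertoli and 4 of 4 Leydig cell markers were higher at 48 h, and 2 Sertoli markers and 1 stromal marker were lower.

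Of the 9 genes called higher at 48 h but not at 24 h, 3 had been tested at 24 h. Among these were Hoxb9 and Hoxb13. Hoxb13 had 33, 60 and 83 counts at 0 h, 69, 72 and 92 at 24 h, and 138, 175 and 100 at 48 h, and its log2 fold change from 0 h was 0.36 ± 0.29 at 24 h (adjusted p = 0.42) and 1.11 ± 0.30 at 48 h (adjusted p = 0.0277). The 0 h and 24 h libraries overlapped, and those of 48 h were above both. Hoxb9, which patterns the rib cage and mammary gland, had 25, 14 and 13 counts at 0 h, 28, 30 and 60 at 24 h, and 83, 95 and 100 at 48 h, with changes of 1.05 ± 0.47 (adjusted p = 0.148) and 2.24 ± 0.37 (adjusted p = 0.00367). Its 48 h libraries were above all others. Hoxb9 was also called at 24 h when 0 h replicate 1 was left out (adjusted p = 0.0365). The 48 h call of Hoxb13 was lost in 3 of 6 fits with a library left out (0 h replicate 2, 48 h replicate 1 or 48 h replicate 2), with adjusted p up to 0.0999. It was also lost with the replicate block.

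A further 6 did not pass the filter in the comparison of 24 h with 0 h. With no filter, Hoxd10 (log2 fold change 4.20, adjusted p = 0.0145) and Hoxa3 (3.01, adjusted p = 0.0435) were called higher at 24 h as well. Hoxa3, needed for the thymus and parathyroid, had 0, 1 and 2 counts at 0 h, 10, 4 and 14 at 24 h, and 22, 31 and 19 at 48 h, and changed by 4.30 ± 0.61 (adjusted p = 0.00188). Hoxc5 had 0, 2 and 1, then 10, 5 and 7, then 24, 18 and 15 counts, and changed by 3.98 ± 0.66 (adjusted p = 0.0038). Hoxd10, a gene of lumbar motor neurons, had 0, 0 and 1, then 10, 6 and 10, then 11, 11 and 21 counts, and changed by 4.88 ± 0.87 (adjusted p = 0.00517). In each of these genes every 24 h and 48 h library held more counts than any 0 h library. With 1 to 3 counts at 0 h their ratios of 48 h to 0 h have wide counting intervals, from 7.18 to 108 for Hoxa3, 5.62 to 86.3 for Hoxc5 and 6.65 to 1580 for Hoxd10. Hoxa10, which acts in the uterus and lumbar spine, had 1, 1 and 2, then 13, 3 and 5, then 11, 16 and 14 counts (3.11 ± 0.50, adjusted p = 0.00329). Hoxa5, a gene of the lung and neck vertebrae, had 2, 0 and 1, then 4, 13 and 8, then 10, 11 and 13 counts (3.21 ± 0.73, adjusted p = 0.0144). Hoxb5 had 5, 3 and 3, then 13, 12 and 10, then 13, 14 and 14 counts (1.71 ± 0.45, adjusted p = 0.0258). In these 3 genes, too, all 24 h and 48 h libraries were above those of 0 h on the CPM scale. The call of Hoxa5 was lost without 48 h replicate 1 or 3 (adjusted p up to 0.0652), and that of Hoxb5 in 5 of 6 fits with a library left out (adjusted p up to 0.101). The Hoxb5 call was also lost with no filter (adjusted p = 0.0703), in DESeq2 and with the replicate block.

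Between 24 h and 48 h, 5 Hox genes rose and 0 fell (edgeR's quasi-likelihood test), where 8.61% of 17499 genes were called higher and 12.7% lower. At an unadjusted p under 0.05 there were 8 members, and DESeq2 called 2 higher and 0 lower. Of the 39 members 23 were tested, 13 passing through both groups, 6 through the 48 h group alone and 4 through neither by itself. With no filter, 5 members were higher (6.64% of all genes) and 0 lower (7.32% of all genes). They included Hoxa3 (adjusted p = 0.0262) and Hoxc4 (adjusted p = 0.0342), not called with the filter, but not Hoxa7 (adjusted p = 0.0575) or Hoxc5 (adjusted p = 0.0558). The members that rose with the filter included Hoxb9 (1.18 ± 0.28, adjusted p = 0.017), Hoxb13 (0.75 ± 0.20, adjusted p = 0.0269), Hoxa7 (1.73 ± 0.49, adjusted p = 0.0354) and Hoxc5 (1.31 ± 0.41, adjusted p = 0.0472). The Hoxc5 call was kept under 2 of 7 other settings and in 0 of 6 fits with a library left out. For Hoxa7 these numbers were 3 of 7 and 2 of 6. Hoxa7 had 2, 6 and 7 counts at 0 h, 2, 6 and 3 at 24 h, and 12, 13 and 14 at 48 h, and was called in this comparison alone, with 1.25 ± 0.46 against 0 h (adjusted p = 0.0761). These calls lay close to the threshold. The count was 0 without 24 h replicate 1, 1 without 48 h replicate 3, 3 without 24 h replicate 3 and 2 without each of the other libraries, and it was 0 with all 9 libraries in 1 fit. Between the same times 5 of 6 myoid and 8 of 11 stromal markers rose and 1 stromal marker fell. Of 8 Sertoli markers 2 rose and 1 fell, and the 4 tested Leydig markers, with a median log2 fold change of -0.15, gave no call.

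**Figure D3:**
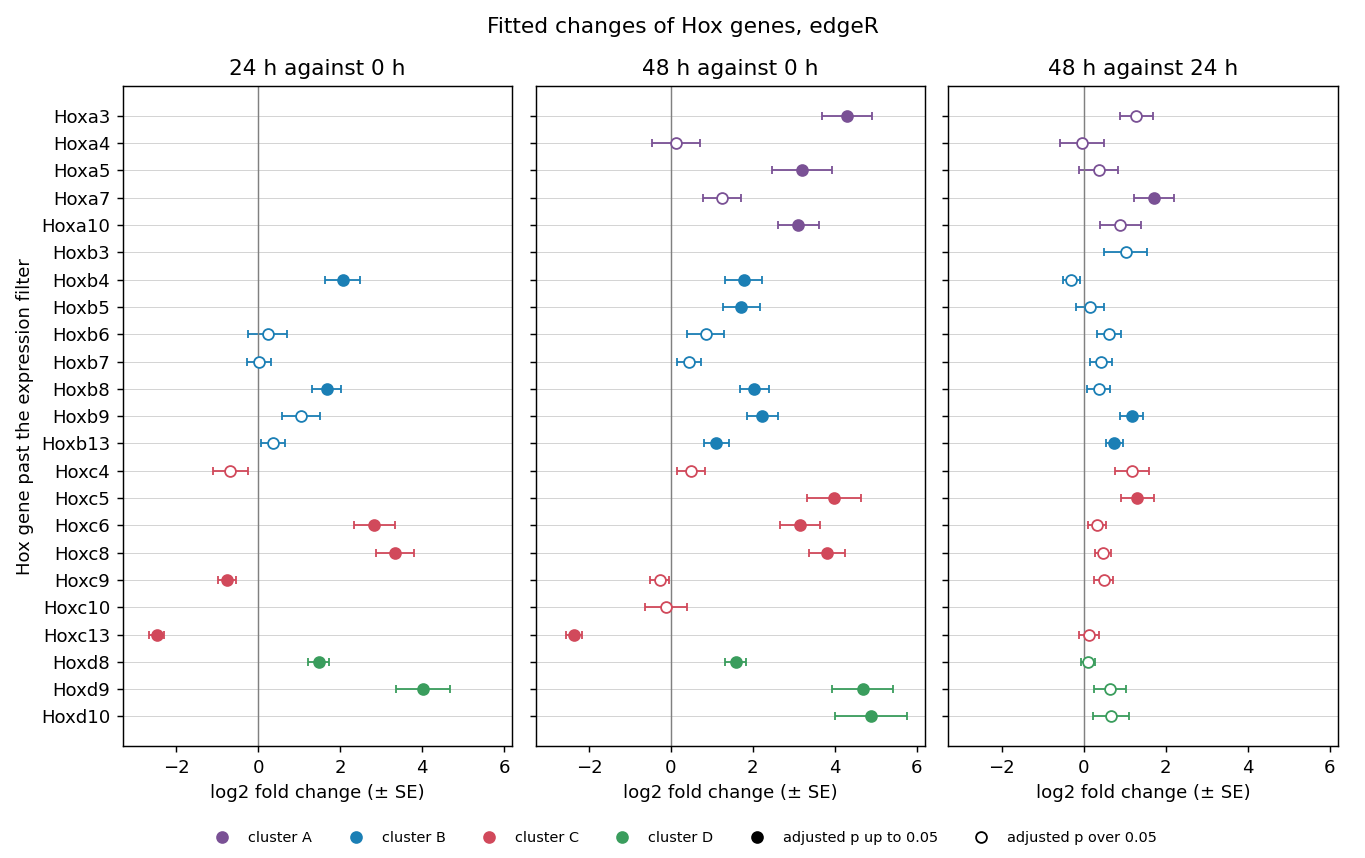
Log2 fold change ± SE of 23 of the 24 Hox genes that passed the expression filter in at least 1 of the 3 comparisons, coloured by cluster, with filled points for an adjusted p up to 0.05 (edgeR) and no point where a gene was not tested. Hoxc13 stood far to the left at 24 h and 48 h against 0 h, at -2.48 and -2.35, and all other filled points but Hoxc9 at 24 h (-0.76) lay to the right of 0.

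The members that passed the filter but were called in no comparison under it were Hoxa4, Hoxb3, Hoxb6, Hoxb7, Hoxc4 and Hoxc10. Hoxb7 was the steadiest of the well counted members, with 27 to 43 counts at 0 h, 29 to 39 at 24 h and 35 to 60 at 48 h and a log2 fold change of 0.02 ± 0.29 at 24 h (adjusted p = 0.968) and 0.44 ± 0.29 at 48 h (adjusted p = 0.302). Hoxb6 had 5 to 22 counts at 0 h and 21 to 28 at 48 h (0.85 ± 0.45, adjusted p = 0.197), and was called at 48 h when 0 h replicate 3 was left out (adjusted p = 0.0378). Hoxc4 had 12 to 21, 8 to 16 and 18 to 31 counts, with changes of -0.68 ± 0.43 (adjusted p = 0.297) and 0.50 ± 0.34 (adjusted p = 0.313) from 0 h, and was called higher at 48 h than at 24 h with no filter (1.18, adjusted p = 0.0342). Hoxa4 had 7 to 13, 8 to 16 and 3 to 17 counts (0.12 ± 0.59 at 48 h, adjusted p = 0.901), and Hoxc10 had 7 to 22, 7 to 10 and 7 to 17 (-0.12 ± 0.51, adjusted p = 0.886). The libraries of the 3 times overlapped in Hoxa4, Hoxb7 and Hoxc10. Hoxb3 went from 2 counts at 0 h in all to 21 at 24 h and 45 at 48 h, and passed the filter only between the later times (1.03 ± 0.53, adjusted p = 0.191). With no filter it was called higher at 48 h than at 0 h (4.16 ± 0.92, adjusted p = 0.00539).

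The 15 members that passed the filter in no comparison held from 0 to 33 counts per library. From the A and B clusters they were Hoxa2, Hoxa6, Hoxa9, Hoxa11, Hoxa13, Hoxb1 and Hoxb2. From the C and D clusters they were Hoxc11, Hoxc12, Hoxd1, Hoxd3, Hoxd4, Hoxd11, Hoxd12 and Hoxd13. Hoxd1 had 6, 6 and 33 counts at 0 h, so that 1 library held most of them, 4 to 12 at 24 h and 5 to 8 at 48 h. Hoxa2 rested at 0 to 3 counts at 0 h and reached 4 to 10 at 48 h, and Hoxa9 had 0 or 1 at 0 h and 7 to 9 at 48 h. With no filter Hoxa9 was called higher at 48 h than at 0 h (3.22 ± 0.98, adjusted p = 0.0361). Hoxa11 had no count at 0 h, 3 to 6 at 24 h and 2 to 5 at 48 h, and Hoxd4 no count, 1 to 8 and 2 to 5. Hoxa13 (0 to 9 counts), Hoxb2 (0 to 9), Hoxa6 (0 to 4), Hoxc12 (0 to 4), Hoxd11 (0 to 4), Hoxc11 (0 to 5), Hoxd13 (0 to 5), Hoxd3 (0 to 3), Hoxb1 (0 to 2) and Hoxd12 (0 to 1) stayed under 10 counts in every library. At position 13, Hoxa13 and Hoxd13 thus stayed low while Hoxb13 and Hoxc13 were among the highest members. No member of positions 2, 11 or 12 passed the filter in any comparison.

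Of the 9 genes of TALE cofactors (Pbx, Meis and Pknox), 5 were higher and 1 was lower at 24 h, and 5 and 1 at 48 h, with medians of 0.56 and 0.57 on the log2 scale. Over all genes tested, 11.4% were higher and 14.2% lower at 24 h, and 13% and 18.5% at 48 h. Pbx3 fell from 33.5 ± 1.97 CPM to 12.7 ± 0.441 and 11.0 ± 1.28 (-1.38 ± 0.11, adjusted p = 0.000193, and -1.60 ± 0.13, adjusted p = 0.000145). Pknox2 rose from 0.443 ± 0.234 CPM to 2.36 ± 0.473 and 2.95 ± 0.229 (2.38 ± 0.42, adjusted p = 0.00597, and 2.69 ± 0.39, adjusted p = 0.0021). Meis3 rose by 2.13 ± 0.38 and 2.39 ± 0.40, and Meis2 by 1.62 ± 0.31 and 2.10 ± 0.38, with adjusted p of 0.00802 or less. Between 24 h and 48 h 1 of the 9 fell.

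Genes of the retinoic acid response were mostly up. Of 13, 10 were higher at each of 24 h and 48 h, with medians of 2.30 and 1.77, and 6 fell between 24 h and 48 h. Over all genes tested, 11.4% were higher at 24 h and 13% at 48 h, and 12.7% fell between these times. Stra8, the retinoic acid target of entry into meiosis, rose from 2.58 ± 0.598 CPM to 912 ± 55.8 at 24 h and stood at 485 ± 23.5 at 48 h. Cyp26a1, which breaks down retinoic acid, stood at 2.13 ± 0.277, 38.6 ± 1.03 and 14.2 ± 1.80 CPM, and the receptor gene Rarb at 0.0992 ± 0.131, 5.81 ± 0.961 and 2.05 ± 0.629. These 3 were lower at 48 h than at 24 h (adjusted p of 0.00354 or less). Of the 23 Hox genes tested between those times 5 were called higher and 0 lower, beside 8.61% and 12.7% of all genes tested. A link with the retinoic acid response was not tested. Stra6, a retinol transporter, rose by 3.83 at 24 h and 3.97 at 48 h on the log2 scale (adjusted p = 0.000503 and 0.000372).

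Among the regulators of Hox chromatin, 3 of 28 Polycomb genes were higher and 6 lower at 24 h, 4 against 7 at 48 h, and 4 against 3 between the later times. The shares higher and lower over all genes were 11.4% and 14.2% at 24 h, 13% and 18.5% at 48 h, and 8.61% and 12.7% between them. Phf19, an accessory subunit of the H3K27 methyltransferase complex, fell from 24.1 ± 4.36 CPM to 2.56 ± 0.404 and 1.32 ± 0.357 (-3.22, adjusted p = 6.35e-05, and -4.18, adjusted p = 4.29e-05). Kdm2b, which recruits Polycomb complexes to CpG islands, fell from 314 ± 27.2 CPM to 200 ± 9.78 and 175 ± 6.81. Bmi1, a core subunit of the H2A ubiquitin ligase complex, stood at 48.5 ± 19.9, 54.5 ± 5.97 and 99.2 ± 7.72, higher at 48 h (adjusted p = 0.0333) but not called at 24 h (adjusted p = 0.717), and the 48 h call was lost in 4 of 6 fits with a library left out. Of 13 trithorax-type genes, 1 was lower at 24 h and 1 at 48 h, and 2 rose and 2 fell between them. The genes lowered against 0 h were the H3K27 demethylases Kdm6a at 24 h (-1.20, adjusted p = 0.0381) and Kdm6b at 48 h (-1.35, adjusted p = 0.00139). The Kdm6a call was lost by library size alone, with the replicate block and in 5 of 6 fits with a library left out.

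Of 11 tested Caudal-type regulators and genes flanking the clusters, 3 were higher and 1 lower at 24 h, 2 higher and 1 lower at 48 h, and of 10 tested between 24 h and 48 h, 1 rose and 2 fell, beside the same shares over all genes. Skap2, beside the A cluster, rose from 47.4 ± 2.48 CPM to 94.0 ± 7.72 and 99.3 ± 1.55 (1.00 ± 0.11, adjusted p = 0.000676, and 1.07 ± 0.10, adjusted p = 0.000278), and both calls were lost with GC and length offsets. Skap1, beside the B cluster, rose at 24 h (1.09 ± 0.30, adjusted p = 0.034), and the flanking gene Ttll6 fell at both times (-2.15 ± 0.55, adjusted p = 0.0256, and -2.39 ± 0.36, adjusted p = 0.00252). Cdx1, a Caudal-type activator of Hox genes, rose at 48 h (1.06 ± 0.30, adjusted p = 0.0338), whereas Cdx2 and Cdx4 held 0 to 5 counts per library. The calls of Skap1 at 24 h and Cdx1 at 48 h were lost with no filter, with the replicate block and in 5 of 6 fits with a library left out, and that of Skap1 also in DESeq2. The 24 h call of Ttll6 was lost with the replicate block and in 3 of 6 fits. Of 17 noncoding RNA and microRNA genes within the clusters 2 were tested, Hotairm1 (-0.32 ± 0.42 at 24 h, adjusted p = 0.644) and Halr1 (-1.09 ± 0.48, adjusted p = 0.149), and neither passed the threshold in any comparison, with adjusted p from 0.149 to 0.981.

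Markers of other cells gave the following beside the Hox values. The 6 myoid markers summed to 13.7 to 15.6 CPM at 0 h, 146 to 207 at 24 h and 263 to 321 at 48 h, and the 11 stromal markers to 767 to 912, 2785 to 3215 and 3870 to 4180, with Tcf21 at 0 in all 0 h libraries. The 10 Sertoli markers summed to 48.6 to 58.1, 68.7 to 106 and 102 to 118 CPM, and the 7 Leydig markers to 4.58 to 6.99, 28.7 to 44.8 and 29.1 to 37.3. In these 4 lists the 0 h libraries were below all later ones, as they were for the A, B and D clusters, and the part of somatic RNA in those values was not tested. The 6 endothelial markers summed to 43.4 to 47.6, 15.1 to 19.7 and 13.1 to 13.6 CPM, with 2 of 5 higher and 2 lower at both times, and the 6 macrophage markers to 15.5 to 18.3, 6.25 to 10.3 and 6.33 to 9.21, with C1qa at 0 at 0 h and 48 h. Of 3 tested macrophage markers 1 was higher and 1 lower at 24 h, and 1 was lower at 48 h. The 12 germ cell markers summed to 2866 to 3889, 2901 to 3153 and 2635 to 2898 CPM, and of 11 tested 2 were higher and 2 lower at 24 h, whereas at 48 h these numbers were 1 and 3. Gfra1 and Ret, the GDNF receptor genes of undifferentiated spermatogonia, were lower at both times, and Kit, the receptor of differentiating spermatogonia, was higher at both.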

How the data were processed

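Poly-A RNA of an SSC line was sequenced at 0 h, 24 h and 48 h (n = 3 each). The deposited values are raw read counts per gene, and the submitters' processing notes name fastp, HISAT2, featureCounts and GRCm38. Versions and counting settings are not given in the sources used here. Symbols, exon lengths and homeoboxes came from GENCODE M21, and promoter sequences from RefSeq. Totals were 16825251 to 22201892 counts per library, which limits precision for low genes, and intervals (95%, exact) cover counting error only.

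Each comparison used its 6 libraries in edgeR 4.0.16 (R 4.3.3): filterByExpr, TMM, the quasi-likelihood test and Benjamini-Hochberg adjustment over all genes, with calls at an adjusted p up to 0.05. Levels are CPM with TMM over 9 libraries, and CPM per kb of the union of exons. The floor was 3 counts per library. Scripts were tested on simulated data. DESeq2 1.42.0, other scalings and filters, a replicate block, GC and length offsets and left-out libraries were alternatives. Members, lists and tests were chosen with earlier results of these data known. By rule the text names the members, gives called members by library, and names up to 4 called genes per list, those with the largest absolute change from 0 h. Some of these genes are not reported here. Ddx4, Cdx2, Cdx4, Hotairm1 and Halr1 were named after their values were seen.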

Additional observations from a re-analysis of the deposited data

How the results depend on the processing

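Hoxc13, Hoxc6, Hoxc8, Hoxd8 and Hoxd9 kept their calls at 24 h and 48 h under every alternative in which they were tested and without any 1 library. The 6 members higher at 24 h became 1 with a filter of 10 counts in every library and 13 with all 9 libraries in 1 fit, and 5 to 8 without 1 library. The 2 lower members became 1 by library size alone, with no filter, in DESeq2 or with a replicate block, and 1 to 2 without 1 library. The 15 higher at 48 h became 3 with the 10-count filter, because fewer members were tested, 12 with the replicate block, and 11 to 16 without 1 library. The 5 higher between 24 h and 48 h became 3 by library size alone, 3 with the 10-count filter, 2 in DESeq2, 0 with all 9 libraries, 1 with the replicate block and 0 to 3 without 1 library. The cause of the other shifts was not tested. Scaling by library size, without TMM, gave a median log2 fold change over all genes of 0.118 at 24 h and 0.127 at 48 h, and all-gene calls of 2742 higher and 2060 lower at 24 h (2002 and 2492 with TMM) and 3045 and 2720 at 48 h (2310 and 3292). Correlations of same-numbered deviations between groups ran from -0.28 to 0.196, and those of differently numbered ones from -0.392 to 0.38. With 3 libraries per group these values cannot decide whether replicate numbers pair the libraries. Uncalled log2 fold changes turned sign without 1 library for Hoxb6 (-0.083 to 0.80) and Hoxb7 (-0.12 to 0.22) at 24 h, Hoxa4 (-0.20 to 0.55) and Hoxc10 (-0.34 to 0.45) at 48 h, and Hoxa4 (-0.35 to 0.40) between the later times. GC and length offsets gave 0.0057 for Hoxc10 at 48 h and 0.18 for Hoxa4 between 24 h and 48 h. Members seen were 13 at 0 h with 10 counts in a library and 22 at 24 h with over 3 counts in every library. The C cluster summed to 4.64 (longest transcript) or 3.99 (library size) at 24 h and 6.41 (longest transcript) at 48 h, and the B cluster to 9.61 (longest transcript) at 48 h.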
